A study of Homo sapiens with 24 samples.

Results

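Knockout (KO) of *ABHD6* in Huh7 cells, a human hepatoma line, was compared with wild type (WT) over 3 times of exposure to palmitic acid. The comparison used all 24 of 24 libraries of the series, 12 KO and 12 WT, and asked which genes differ between the genotypes whatever the time. The 6 groups were WT and KO cells in basal medium (0 h) and WT and KO cells after 24 h and after 48 h in the saturated fatty acid palmitate (palmitic acid, 800 µM), with 4 libraries in each. All 6 groups were the same cell line, and at each time the labels give the knockout as the one difference between KO and WT. The labels do not say how many knockout clones were used or whether each of the 4 libraries per group was its own culture, so the p-values reflect only how these libraries vary, which may be technical. Cells kept as long in culture without the acid were not analysed here, and the protocol text describes a harvest after 1 day only, so the 48 h time rests on the sample labels and the design text.

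ABHD6 is a membrane-bound serine hydrolase that releases fatty acids from monoacylglycerols, among them an endocannabinoid. Hepatocytes take up fatty acids, bind them in the cytosol, and oxidise them or export them in lipoproteins. They also secrete most plasma proteins, among them transferrin, albumin, fibrinogen and the apolipoproteins, and hepatoma lines such as Huh7 keep part of that program.

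The deposited values were FPKM, fragments scaled to transcript length and to the depth of the library. Differences below are KO minus WT means of log2(FPKM + 0.5), given with their standard error (SE), from a limma fit of genotype with time as a covariate over 12 KO and 12 WT libraries. They understate the change of genes near 0. Calls required a Benjamini-Hochberg adjusted p under 0.05. The 17252 genes tested averaged 0.5 FPKM or more over the 24 libraries. Another 40727 genes fell below that floor.

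The targeted gene came first, as a check of the labels. *ABHD6* (ENSG00000163686.14, chr3:58237506-58295693, plus strand, GRCh38) was above 0 in 3 of 12 WT libraries and 4 of 12 KO libraries. The values above 0 lay between 0.693 and 1.16 FPKM, and the mean of 0.239 FPKM was below the floor for testing. *ABHD6* was therefore too low in both genotypes to check the genotype labels.

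No measure of the libraries as a whole was called different between the genotypes. The steps of the lowest values placed 399719 to 758874 fragments behind each library, at which 1 fragment on a transcript of 2 kb equals 0.659 to 1.25 FPKM. In an exact two-sided permutation test of the genotype labels within times, none of 6 measures (summed FPKM, genes above 0, estimated fragments, and the shares of antisense-annotated, mitochondrially encoded and ribosomal protein genes) had an adjusted p under 0.354. The mitochondrially encoded share includes *MT-CO3*, *MT-ATP6* and *MT-ATP8*, which were listed at 0 in every WT library at 48 h and not in KO. At that time the share was 10.4% to 12.1% in WT and 13.2% to 14.9% in KO. It therefore does not compare the same genes at 48 h. The share of antisense-annotated genes was 44.0% to 58.1%. No source used here gives the strand setting of the counting, so a gene cannot be told apart from an overlapping gene on the opposite strand. Of hepatocyte markers, *ALB* averaged 138 FPKM in KO and 196 in WT, *AFP* 200.4 and 211, and *SERPINA1* 290.2 and 344. All of *VWF*, *TEK*, *KDR*, *CDH5* and *CLEC4G* (endothelial), *KRT7* (1 of the 10 biliary and progenitor markers), *DCN* and *DES* (stellate) and *MS4A1* (B cell) were listed at 0 in all 24 libraries. The biliary and progenitor markers were otherwise expressed in part, with a summed level of 93.7 to 577 FPKM in KO and 164 to 812 in WT, and most of it was *CD24*, at a mean of 261 FPKM in KO and 342 in WT (adjusted p = 0.452). Their part in the results was not tested. The summed level of the 9 immune markers was 149.8 to 338 FPKM in KO and 83.7 to 311 in WT, and most of it was *LYZ*, whose exons overlap an antisense-annotated gene. The 7 endothelial markers, of which 5 were at 0 everywhere, summed to 3.54 to 27.0 FPKM in KO and 0.653 to 25.6 in WT. The 9 stellate and fibroblast markers, of which 2 were at 0 everywhere, summed to 0 to 9.80 FPKM in KO and 0 to 15.2 in WT.

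Over the 3 times 21 genes were called, 0.122% of the genes tested. Of these 19 were lower in KO (0.110% of the genes tested) and 2 were higher (0.0116%). The 8 genes that changed at least 2-fold were all lower in KO. An unadjusted p under 0.05 was reached by 1152 genes (6.68%), 624 lower (3.62%) and 528 higher (3.06%). All 21 called genes had the same sign at 0 h, 24 h and 48 h, against 24.0% of all genes tested. Since the call used all 3 times, that count is a description. Fitted at single times, 17 genes were called at 0 h (0.0985%), 2 at 24 h (0.0116%) and 11 at 48 h (0.0638%), and 14 of the 21 genes were called at no single time, among them *TF*, *FGB*, *FABP1*, *SLC19A1*, *DNAJC17*, *TAF9B*, *MAP3K4* and *APOA1*. Another 20 genes were called at a single time and not over the 3 times. Without the 24 h libraries only 2 genes, *AC092115.2* and *ADGRG5*, were called, against 9 without the 0 h libraries and 6 without the 48 h libraries. Without a trend of the variance with level, the calls of 15 of the 21 genes were lost, and *ADGRG5*, *HPS3*, *CLRN3*, *AC026333.3*, *AC092115.2* and *AC005726.4* kept theirs. On means over the 3 times per genotype and replicate number, an alternative chosen after seeing the data, 17 of the 21 were lost, and *HPS3*, *AC026333.3*, *AC092115.2* and *AC005726.4* kept theirs.

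**Figure D1:**
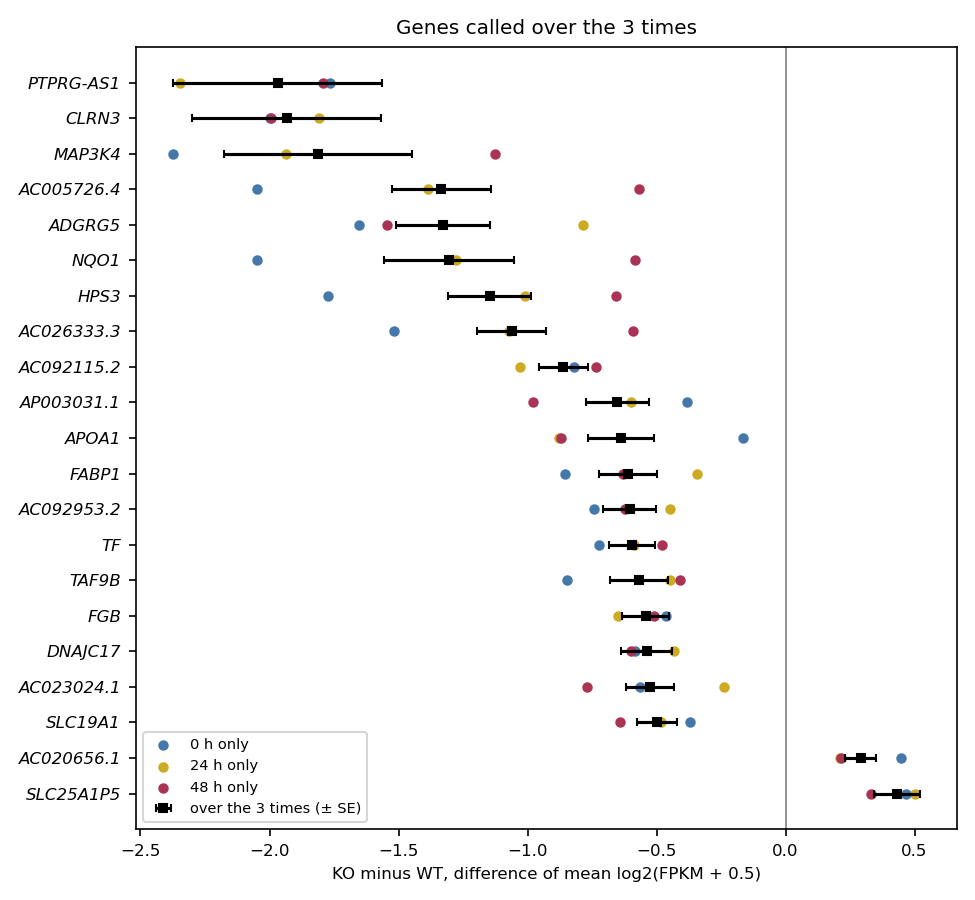
Differences of the 21 called genes. The x axis is KO minus WT in mean log2(FPKM + 0.5); black squares with bars are the values over the 3 times ± SE (12 KO and 12 WT libraries), and coloured points are the differences at 0 h, 24 h and 48 h alone (4 KO and 4 WT libraries each). All points of the 19 lower genes lie left of 0 and all points of the 2 higher genes lie right of it.

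Of the called genes 6 are protein-coding with no exon overlap on the opposite strand: *TF*, *FGB*, *FABP1*, *ADGRG5*, *CLRN3* and *TAF9B*. Another 6 are protein-coding with such an overlap (*NQO1*, *HPS3*, *APOA1*, *SLC19A1*, *DNAJC17*, *MAP3K4*), and 6 are annotated as antisense. The other 3 are *AC026333.3* and *PTPRG-AS1*, both long non-coding genes, and *SLC25A1P5*, a pseudogene. Overlap with an opposite-strand exon was present for 15 of 21 called genes (71.4%) and for 7949 of the 17252 tested (46.1%). Tested without such genes, 5 of 9213 annotated genes were called, all 5 among the 21.

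4 of the called genes encode plasma proteins or a fatty acid binding protein: *TF*, *FGB*, *APOA1* and *FABP1*. *TF* encodes transferrin, the iron carrier of plasma. Its level at 0 h was 118, 109, 137 and 195 FPKM in the WT libraries and 84.9, 75.3, 88.1 and 81.5 in the KO libraries. At 24 h it was 163, 118, 138 and 131 FPKM in WT and 91.0, 99.5, 88.7 and 84.8 in KO. At 48 h it was 203, 232, 196 and 189 FPKM in WT and 151, 159, 147 and 131 in KO. At each time the highest KO library was below the lowest WT library, and both genotypes were highest at 48 h. *TF* (ENSG00000091513.14, chr3:133745956-133796640, plus strand) was 1.51-fold lower in KO, a log2 difference of -0.60 ± 0.09 SE (adjusted p = 0.00157). The adjusted p of *TF* was 0.0946 without the variance trend and 0.176 on means per replicate number.

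*FGB* encodes the beta chain of fibrinogen, the clotting protein. It read 170.4, 124, 146 and 168 FPKM in WT and 132, 114, 108 and 87.8 in KO at 0 h. At 24 h it read 94.0 to 103 FPKM in WT against 59.8, 56.3, 79.6 and 59.5 in KO. At 48 h the WT libraries stood at 176, 133, 140.1 and 134 FPKM and the KO libraries at 98.4, 92.3, 121 and 95.9. The genotypes overlapped at 0 h, where 1 KO library exceeded the lowest WT library, and were apart at 24 h and 48 h. The difference of *FGB* (ENSG00000171564.11, chr4:154562956-154571086, plus strand) was -0.54 ± 0.09 SE (adjusted p = 0.00617), or 1.46-fold lower in KO. Without the variance trend the adjusted p of *FGB* was 0.194, and on means per replicate number 0.364.

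*FABP1* encodes the fatty acid binding protein of liver, which carries long-chain fatty acids in the cytosol and is a known target of PPAR alpha. Its WT libraries held 499, 757, 825 and 732 FPKM at 0 h, and its KO libraries 379, 349, 476 and 337. At 24 h the 4 WT libraries ranged from 357 to 600.1 FPKM and the 4 KO libraries from 284 to 439. At 48 h the ranges were 387 to 554 FPKM in WT and 249 to 389.6 in KO. The groups were apart at 0 h and overlapped at 24 h and, by 1 KO library, at 48 h. Over the 3 times *FABP1* (ENSG00000163586.9, chr2:88122982-88128116, minus strand) was 1.53-fold lower in KO (log2 difference -0.61 ± 0.11 SE, adjusted p = 0.0188). The call of *FABP1* was lost without the variance trend (adjusted p = 0.231) and on means per replicate number (adjusted p = 0.305).

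*APOA1*, the main protein of high-density lipoprotein, was 77.4 to 92.7 FPKM in WT and 60.3 to 86.0 in KO at 0 h. It was 37.3 to 59.7 FPKM in WT and 21.2 to 29.6 in KO at 24 h, and 46.1 to 74.4 and 27.8 to 34.9 at 48 h. The groups overlapped at 0 h and were apart at both later times. Its difference was -0.64 ± 0.13 SE (adjusted p = 0.0382), and the call was lost on leaving out any of 14 of the 24 libraries, with adjusted p up to 0.0800. For *APOA1* the adjusted p was 0.212 without the variance trend and 0.336 on means per replicate number. The exons of *APOA1* (ENSG00000118137.9, chr11:116835751-116837950, minus strand) overlap those of *APOA1-AS*, which averaged 94.5 FPKM in KO and 124 in WT (difference -0.48 ± 0.20 SE, adjusted p = 0.671).

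**Figure D2:**
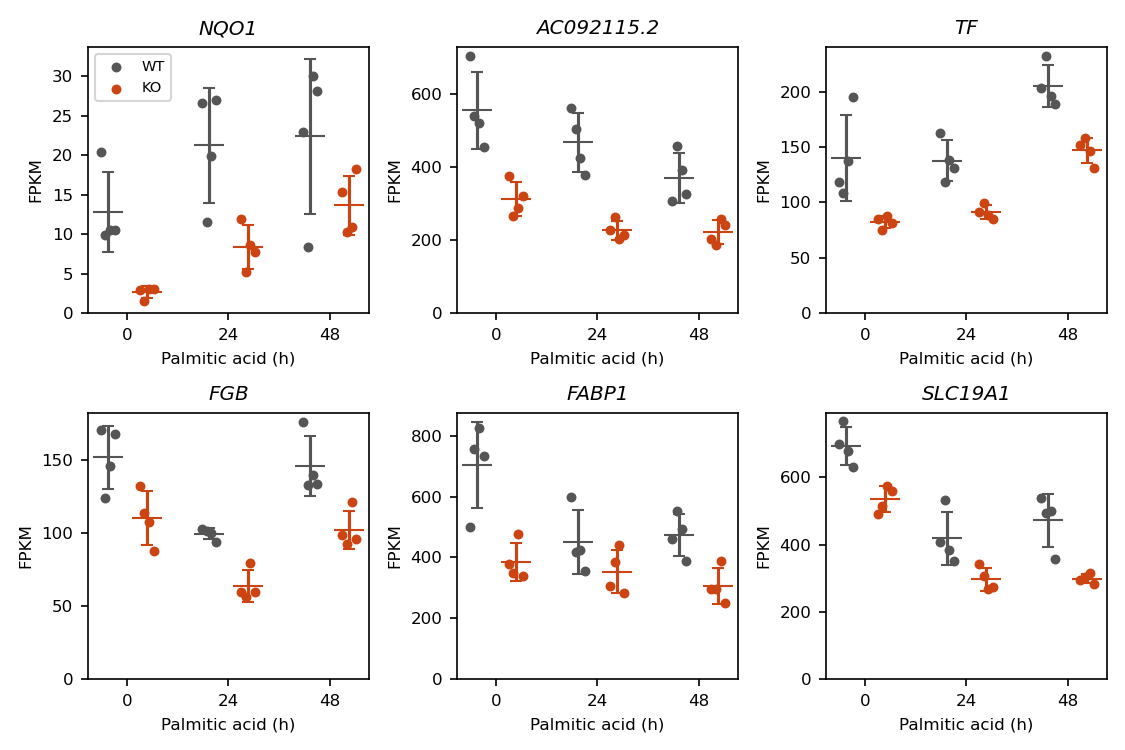
FPKM of 6 called genes in each library. The x axis is the time with palmitic acid (0 h is basal medium), the y axis is FPKM from 0, points are the 4 libraries of a group (WT grey, KO orange), and horizontal marks with bars are means ± SD. The KO points of *TF*, *AC092115.2* and *SLC19A1* lie below all WT points of the same time, while those of *NQO1* do so at 0 h only.

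The stretches of 200 bases before the RefSeq transcript starts (GRCh38.p14) of *FGB*, *FABP1*, *TF* and *TAF9B* are shown because these called genes hold a core motif of the C/EBP factors, which are abundant in liver, and have no overlapping gene on the opposite strand. Capitals mark that core, TTGCNNAA, on either strand. *FGB* spans chr4:154562780-154562979 on the plus strand, *FABP1* chr2:88128063-88128262 on the minus strand, *TAF9B* chrX:78139651-78139850 on the minus strand and *TF* chr3:133746193-133746392 on the plus strand, whose RefSeq start lies 437 bases inside the GENCODE gene.
FGB: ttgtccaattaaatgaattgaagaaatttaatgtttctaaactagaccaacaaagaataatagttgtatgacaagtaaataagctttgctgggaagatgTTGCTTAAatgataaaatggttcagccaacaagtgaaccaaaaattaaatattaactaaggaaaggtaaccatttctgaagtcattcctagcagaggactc
FABP1: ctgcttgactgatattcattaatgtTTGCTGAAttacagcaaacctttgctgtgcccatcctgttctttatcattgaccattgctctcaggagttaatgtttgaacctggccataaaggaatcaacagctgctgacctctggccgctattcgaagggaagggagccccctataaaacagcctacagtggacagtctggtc
TF: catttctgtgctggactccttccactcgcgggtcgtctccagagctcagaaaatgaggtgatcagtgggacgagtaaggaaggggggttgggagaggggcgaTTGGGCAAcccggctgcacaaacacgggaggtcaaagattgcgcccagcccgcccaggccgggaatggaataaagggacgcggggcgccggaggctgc
TAF9B: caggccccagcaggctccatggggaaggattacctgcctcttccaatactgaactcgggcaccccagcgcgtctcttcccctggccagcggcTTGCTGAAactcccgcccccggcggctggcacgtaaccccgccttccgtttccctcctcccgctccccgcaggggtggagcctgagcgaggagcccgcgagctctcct

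RefSeq starts were found for 11 of the 21 called genes, and motifs were searched on both strands of the 250 bases before each. TTGCNNAA was present for 4 of the 11 (36.4%: *TF*, *FABP1*, *FGB*, *TAF9B*), against 9.15% of all 27305 promoters and 5.85% of the 10101 of tested genes. Its share was much the same in the hepatocyte identity list (7 of 19, 36.8%) and the acute phase list (4 of 12, 33.3%). These sets share genes: *TF* and *FGB* are among the 7 of the hepatocyte list and *FGB* is among the 4 of the acute phase list. The shares are therefore not independent. The motif was also present for *ALB*, *AFP*, *FGA*, *AHSG* and *VTN*, which were not called. Whether it is more frequent in the called genes than in other liver genes was not tested. TGACNNNGC, the core of the antioxidant response element, was present for 3 (*MAP3K4*, *HPS3*, *PTPRG-AS1*), against 11.1% and 12.1%. The hepatocyte nuclear factor 4 motif CAAAGTCCA was present for 0 of 11, and for 0.300% of all promoters and 0.267% of those of tested genes. The motif in capitals was picked after the matches of these and other motifs were seen, and a match is a run of letters, not a measured binding site.

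Across the list of hepatocyte identity genes, 25 of 26 members were tested, 3 fell (*TF*, *APOA1*, *FGB*) and none rose. Over all genes tested 0.110% fell and 0.0116% rose. Differences of 21 of the 25 were negative, where 50% of all genes were negative, 16 were negative at all 3 times, and the median was -0.28, beside a median of 0.0002 over all genes and 11.8% of all genes negative at all 3 times. The list's medians were -0.38 at 0 h, -0.20 at 24 h and -0.27 at 48 h. Members that were not called include *APOH*, a phospholipid-binding plasma apolipoprotein (-0.68 ± 0.15 SE, adjusted p = 0.0578), *ALB*, albumin (-0.49 ± 0.14 SE, adjusted p = 0.264), *AHSG*, the plasma glycoprotein fetuin (-0.54 ± 0.18 SE, adjusted p = 0.455), and *FGA*, the alpha chain of fibrinogen (-0.60 ± 0.17 SE, adjusted p = 0.289). The liver transcription factors *HNF4A* (-0.33 ± 0.20 SE) and *CEBPA* (-0.35 ± 0.20 SE) were not called, with adjusted p of 0.808 and 0.787. *TTR*, *APOA2* and *FOXA3* had positive differences (0.17, 0.13 and 0.75) and were not called. *AFP*, the fetal plasma protein of hepatomas, differed by -0.06 ± 0.10 SE.

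Of the acute phase proteins, which liver cells make in inflammation, 12 of 20 were tested. *FGB*, already counted in the hepatocyte list, fell and none rose, beside 0.110% and 0.0116% of all genes. Negative differences were found for 10 of the 12, where 50% of all genes were negative. The median was -0.52, with medians of -0.19, -0.55 and -0.48 at 0 h, 24 h and 48 h. *C3*, the central complement protein, averaged 20.2 FPKM in KO and 36.3 in WT (-0.97 ± 0.34 SE, adjusted p = 0.496), and *SERPINA1*, the main protease inhibitor of plasma, differed by -0.25 ± 0.08 SE (adjusted p = 0.360). *SERPINA3* was listed at 0 in all KO libraries and in the WT libraries at 0 h, and was not called (adjusted p = 0.715). Its WT mean of 1.17 FPKM is about the value of 1 fragment on a transcript of 2 kb (0.659 to 1.25 FPKM). The 2 positive members were *A2M* (0.24) and *ITIH3* (0.19).

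Of the lipoprotein assembly genes, 16 of 19 were tested. *APOA1*, also counted in the hepatocyte list, fell and none rose, beside 0.110% and 0.0116% of all genes. Their median was -0.20, with 12 of 16 negative, where 50% of all genes were negative. *APOC2*, the activator of lipoprotein lipase, averaged 0.967 FPKM in KO and 8.74 in WT (-2.23 ± 0.75 SE, adjusted p = 0.455), and *APOC1*, which lies in the same gene cluster, 28.4 and 45.3 (-1.13 ± 0.47 SE, adjusted p = 0.659). The KO mean of *APOC2* is within the value of 1 fragment on a transcript of 2 kb (0.659 to 1.25 FPKM). *MTTP*, which loads lipid onto *APOB*, differed by -0.75 ± 0.29 SE and *APOB* itself by -0.16 ± 0.10 SE, with adjusted p of 0.612 and 0.828. The union of these 3 lists holds 56 genes, of which 44 were tested and 35 were negative (median -0.27). Under median-of-ratios rescaling and quantile normalization the medians of the hepatocyte and acute phase lists lay between -0.27 and -0.28 and at -0.52.

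**Figure D3:**
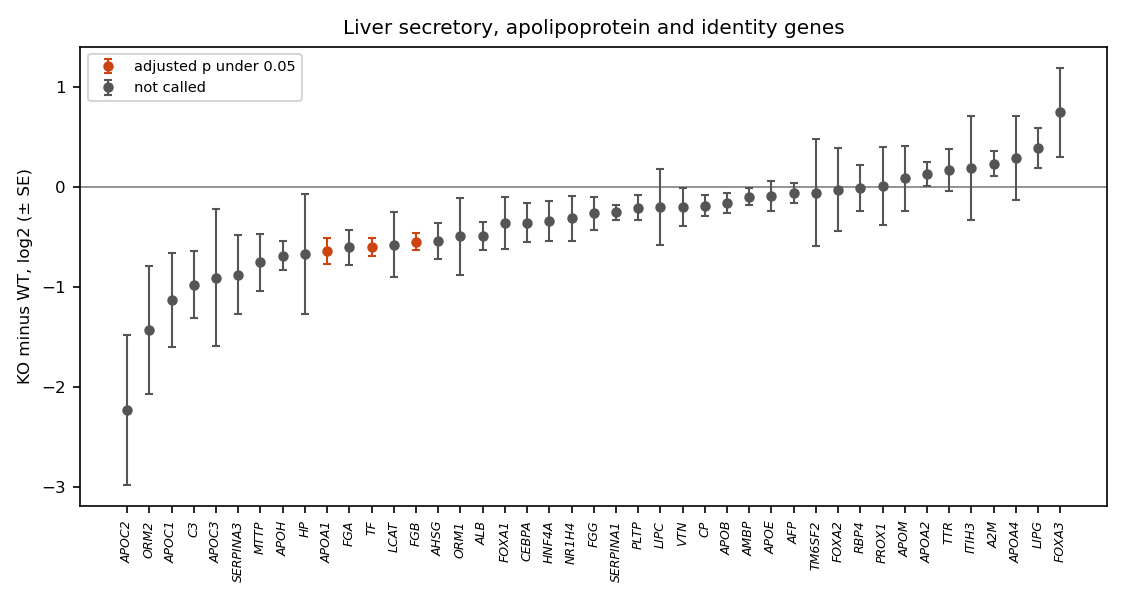
Members from the 3 lists of hepatocyte identity, acute phase and lipoprotein assembly genes, ordered by difference. The y axis is KO minus WT on the log2(FPKM + 0.5) scale over the 3 times, with bars of ± SE (12 KO and 12 WT libraries); orange points passed an adjusted p under 0.05 and grey points did not. The 3 orange genes, *APOA1*, *TF* and *FGB*, lie between -0.54 and -0.64 with short bars, while the 9 genes with lower values have wider bars.

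*NQO1* encodes a quinone reductase and is a known target of the stress regulator NRF2. At 0 h it was 20.5, 9.85, 10.6 and 10.5 FPKM in WT and 1.59 to 3.07 in KO. At 24 h it was 11.5 to 27.0 FPKM in WT and 11.9, 5.19, 8.58 and 7.80 in KO. At 48 h it was 23.0, 8.41, 30.0 and 28.2 FPKM in WT and 15.3, 10.2, 10.9 and 18.2 in KO. The genotypes were apart at 0 h and overlapped by a single low WT library, replicate 1, at both later times. *NQO1* (ENSG00000181019.12, chr16:69706996-69726951, minus strand) was 2.47-fold lower in KO over the 3 times (-1.30 ± 0.25 SE, adjusted p = 0.0276). Its differences were -2.05, -1.28 and -0.59 at 0 h, 24 h and 48 h, and their change with time was not called (adjusted p = 0.838 in the limma test of genotype by time). The call was lost on leaving out any of 9 libraries, with adjusted p up to 0.0567, and the adjusted p was 0.0725 without the variance trend and 0.399 on means per replicate number.

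*AC092115.2* is annotated antisense within *NQO1* and had the lowest p of all genes. At 0 h its WT libraries held 702, 539.7, 521 and 454 FPKM, and its KO libraries 375, 265, 288 and 319. At 24 h they held 562, 503, 424 and 379 FPKM in WT, and 227, 262, 202 and 215 in KO. At 48 h they held 308, 458, 391 and 325 FPKM in WT, and 203, 186, 256 and 241 in KO. No KO library reached a WT library of its time. *AC092115.2* (ENSG00000261602.1, chr16:69709874-69710583, plus strand) was 1.82-fold lower in KO (-0.86 ± 0.09 SE, adjusted p = 3.88e-05), and was called in all 39 alternative settings.

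Of the 23 NRF2 genes tested *NQO1* alone was called, beside 0.122% of all genes. Positive differences were found for 15, where 50% of all genes were positive, and the median was 0.07. *SRXN1* (0.75 ± 0.31 SE) and *TXNRD1* (0.30 ± 0.13 SE), which encode sulfiredoxin and a thioredoxin reductase, were higher in sign with adjusted p of 0.655 and 0.710. The glutathione synthesis gene *GCLM* (0.18) and the iron store *FTH1* (0.03) also had positive differences. Negative differences were found for 8 of the 23, among them *NQO1*, *AKR1B10* (-0.57), *AKR1C3* (-0.56), *GCLC* (-0.33), *AKR1C1* (-0.28) and *HMOX1* (-0.28).

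*SLC19A1* encodes the reduced folate carrier of the plasma membrane. It was 699, 766, 677 and 630.0 FPKM in WT and 491, 515, 576 and 559 in KO at 0 h. It was 408, 532, 384 and 350.2 FPKM in WT and 342, 306, 267 and 273 in KO at 24 h, and 539, 493, 499.8 and 356 against 295, 304, 316 and 282 at 48 h. As for *TF*, every KO library was below every WT library of its time. The difference of *SLC19A1* (ENSG00000173638.18, chr21:45493572-45544411, minus strand) was -0.50 ± 0.08 SE (adjusted p = 0.00273), with adjusted p of 0.219 without the variance trend and 0.305 on means per replicate number. *COL18A1*, which it overlaps on the opposite strand, differed by -0.24 ± 0.14 SE (adjusted p = 0.806). Along with *AC092115.2* and *TF*, *SLC19A1* was 1 of 4 genes, 0.0232% of those tested, whose libraries did not overlap at any time; all 4 were lower in KO. The other one, ENSG00000279184, has no symbol in the annotation used, read 0.882 to 1.74 FPKM in KO and 1.44 to 3.53 in WT, and was not called (adjusted p = 0.285).

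*ADGRG5*, an adhesion G protein-coupled receptor, had the largest fall among the called coding genes above 5 FPKM in WT and free of opposite-strand overlap. It was 15.0 to 29.7 FPKM in WT and 5.16 to 7.84 in KO at 0 h, 6.88 to 12.8 and 4.74 to 7.25 at 24 h, and 16.2 to 28.2 and 5.80 to 8.75 at 48 h. The genotypes were apart at 0 h and 48 h and overlapped by 1 WT library at 24 h. *ADGRG5* (ENSG00000159618.15, chr16:57542421-57591681, plus strand) was 2.51-fold lower in KO (-1.33 ± 0.18 SE, adjusted p = 0.000729). No single left-out library ended the call, while leaving out all libraries of 0 h (adjusted p = 0.0506) or of 48 h (0.0993) did, as did means per replicate number (0.212).

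*MAP3K4*, a kinase upstream of p38 and JNK signaling, was 5.08 to 19.2 FPKM in WT (median 8.46) and 0.308 to 7.67 in KO (median 2.62). The ranges were apart at 0 h and 48 h and overlapped at 24 h, where 1 KO library read 7.67 FPKM. The difference of -1.81 ± 0.36 SE passed narrowly (adjusted p = 0.0402), and leaving out any of 17 libraries ended the call, with adjusted p up to 0.0954. *CLRN3*, a membrane protein of the clarin family named after its values were seen because its level of under 5 FPKM puts it outside the rule for naming, was listed at 0 in 10 of 12 KO libraries and in 1 of 12 WT libraries. Its WT values reached 3.88 FPKM, and the 2 KO values above 0 were 2.27 and 1.56. The fitted difference of *CLRN3*, -1.93 ± 0.37 SE (adjusted p = 0.0236), depends on the pseudocount, running from -1.36 to -3.51 over the settings tried, and the adjusted p was 0.0503 without WT 24 h replicate 2.

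*TAF9B*, a subunit of the general transcription factor TFIID, was 37.3 to 114 FPKM in WT and 32.2 to 67.8 in KO (-0.57 ± 0.11 SE, adjusted p = 0.0330). Its call was lost without any of 11 libraries, with adjusted p up to 0.0674. *DNAJC17*, a J-domain co-chaperone, was 73.7 to 237 FPKM in WT and 61.9 to 158 in KO (-0.54 ± 0.10 SE, adjusted p = 0.0188). Without the variance trend the adjusted p was 0.212 for *TAF9B* and 0.219 for *DNAJC17*, and on means per replicate number 0.416 and 0.4704. *TAF9B* libraries overlapped at 48 h only and *DNAJC17* libraries at 24 h only. *GCHFR*, on the strand opposite to *DNAJC17*, differed by -0.42 ± 0.68 SE (adjusted p = 0.942).

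*HPS3* encodes a subunit of a complex that builds lysosome-related organelles, and its exons overlap those of *CP*, ceruloplasmin, the copper carrier of plasma. It was 194, 259, 185 and 251 FPKM in WT and 67.9, 53.2, 61.8 and 75.1 in KO at 0 h. The ranges were 89.3 to 164 FPKM in WT and 44.4 to 78.5 in KO at 24 h, and 133 to 302 and 103 to 154 at 48 h. The groups overlapped at 48 h only. *HPS3* (ENSG00000163755.8, chr3:149129584-149173732, plus strand) was 2.21-fold lower in KO (-1.15 ± 0.16 SE, adjusted p = 0.000848), with differences of -1.77, -1.01 and -0.66 at the 3 times. *CP* averaged 104 FPKM in KO and 121 in WT (-0.18 ± 0.11 SE, adjusted p = 0.808).

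Of the 8 called antisense and long non-coding genes 7 fell in KO. *AC005726.4*, opposite to the glycolytic gene *ALDOC*, was 251 to 855 FPKM in WT and 145 to 303 in KO (-1.33 ± 0.19 SE, adjusted p = 0.000993). Its differences were -2.05 at 0 h, -1.39 at 24 h and -0.57 at 48 h, with groups apart at 0 h and 24 h and overlapping at 48 h. *ALDOC* itself was listed at 0 in 8 of 12 KO libraries and 3 of 12 WT libraries and had a difference of -1.84 ± 0.59 SE (adjusted p = 0.422). *AC026333.3*, which overlaps the niacin receptor family gene *HCAR3*, was 102 to 307 FPKM in WT and 66.9 to 124 in KO (-1.06 ± 0.13 SE, adjusted p = 0.000275). *PTPRG-AS1* had the largest difference of the called genes, -1.97 ± 0.40 SE (adjusted p = 0.0452), with 13.1 to 61.1 FPKM in WT and 0 to 29.6 in KO. KO replicate 1 was the highest KO library of *PTPRG-AS1* at each time (15.8, 22.4 and 29.6 FPKM), and leaving out any of 20 libraries ended the call, with adjusted p up to 0.116.

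Also lower were 3 antisense genes outside the rule for naming. They are *AP003031.1*, opposite to the triglyceride synthesis gene *DGAT2* (-0.65 ± 0.12 SE, adjusted p = 0.0199), *AC092953.2*, opposite to the phospholipid flippase gene *ATP11B* (-0.60 ± 0.10 SE, adjusted p = 0.00897), and *AC023024.1*, opposite to the proprotein convertase gene *PCSK6* (-0.53 ± 0.09 SE, adjusted p = 0.0142). Their partners were not called, with differences of 0.37 ± 0.61 SE for *DGAT2*, -0.07 ± 0.37 SE for *ATP11B* and -0.08 ± 0.27 SE for *PCSK6*. Without WT 24 h replicate 2 or KO 24 h replicate 3 the adjusted p of *AP003031.1* was 0.0503 or 0.0502.

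The 2 genes that rose in KO did so by little. *AC020656.1*, opposite to the lysozyme gene *LYZ*, was 20984 to 41629 FPKM in WT (median 31598) and 25672 to 59688 in KO (median 37217), a difference of 0.29 ± 0.06 SE (adjusted p = 0.0452). The groups were apart at 0 h and 48 h. Its call was lost under median-of-ratios rescaling (adjusted p = 0.0610), under quantile normalization (adjusted p = 0.399) and without any of 21 libraries, and *LYZ* differed by 0.32 ± 0.12 SE (adjusted p = 0.586). *SLC25A1P5*, a pseudogene of the mitochondrial citrate carrier whose reads may belong to that gene's other copies, was 105 to 234 FPKM in WT and 166 to 311 in KO (0.43 ± 0.09 SE, adjusted p = 0.0425). It was named after its value was seen, and leaving out any of 18 libraries ended its call.

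In lipid handling 1 tested gene of the lists below was called. Of 15 monoacylglycerol and endocannabinoid genes 11 were tested, none was called, and the median was 0.02. *MGLL*, the main monoacylglycerol lipase, averaged 1.12 FPKM in KO and 1.39 in WT (-0.38 ± 0.43 SE), and *ABHD12* 48.5 and 58.0 (-0.39 ± 0.25 SE), with adjusted p of 0.897 and 0.828. *CES1*, a liver carboxylesterase, averaged 3.27 FPKM in KO and 7.52 in WT, was lower in sign at each time and was not called (-1.69 ± 0.43 SE, adjusted p = 0.224). Of the PPAR alpha targets 15 of 20 were tested, *FABP1* alone was called, beside 0.122% of all genes, and the median was -0.03. None was called of the tested genes of cholesterol synthesis (25), fatty acid synthesis (17), lipid droplets and triglyceride synthesis (25), beta oxidation (21) or phospholipids and sphingolipids (32), and their medians lay between -0.15 and -0.03.

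Immediate early genes, the first transcripts to follow a growth or stress signal, were positive in sign, and none was called. All 13 of the members tested had a positive difference over the 3 times, where 50% of all genes were positive. Of the 13, 5 were positive at each of the 3 times, beside 12.2% of all genes. The median was 0.43, with medians of 0.23, 0.80 and 0.74 at 0 h, 24 h and 48 h. The members with the lowest p were *DUSP5*, a phosphatase of ERK (0.71 ± 0.26 SE, adjusted p = 0.545), and the transcription factors *KLF4* (0.59 ± 0.26 SE, adjusted p = 0.686) and *KLF6* (0.50 ± 0.23 SE, adjusted p = 0.730). Of 24 genes of the G1/S transition and DNA replication, 19 were negative (median -0.23). At all 3 times 10 of them were negative, beside 11.8% of all genes. None was called, *UHRF1* (-0.87 ± 0.37 SE, adjusted p = 0.676) being the lowest. Cytosolic ribosomal protein genes were positive in 26 of 32, with a median of 0.07 and no call. Of the 32, 7 were positive at all 3 times, and the medians were 0.14, -0.04 and 0.18 at 0 h, 24 h and 48 h. Hypoxia and glycolysis genes had a median of -0.21, which was -0.51 at 0 h and -0.02 at 48 h, and none was called over the 3 times.

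**Figure D4:**
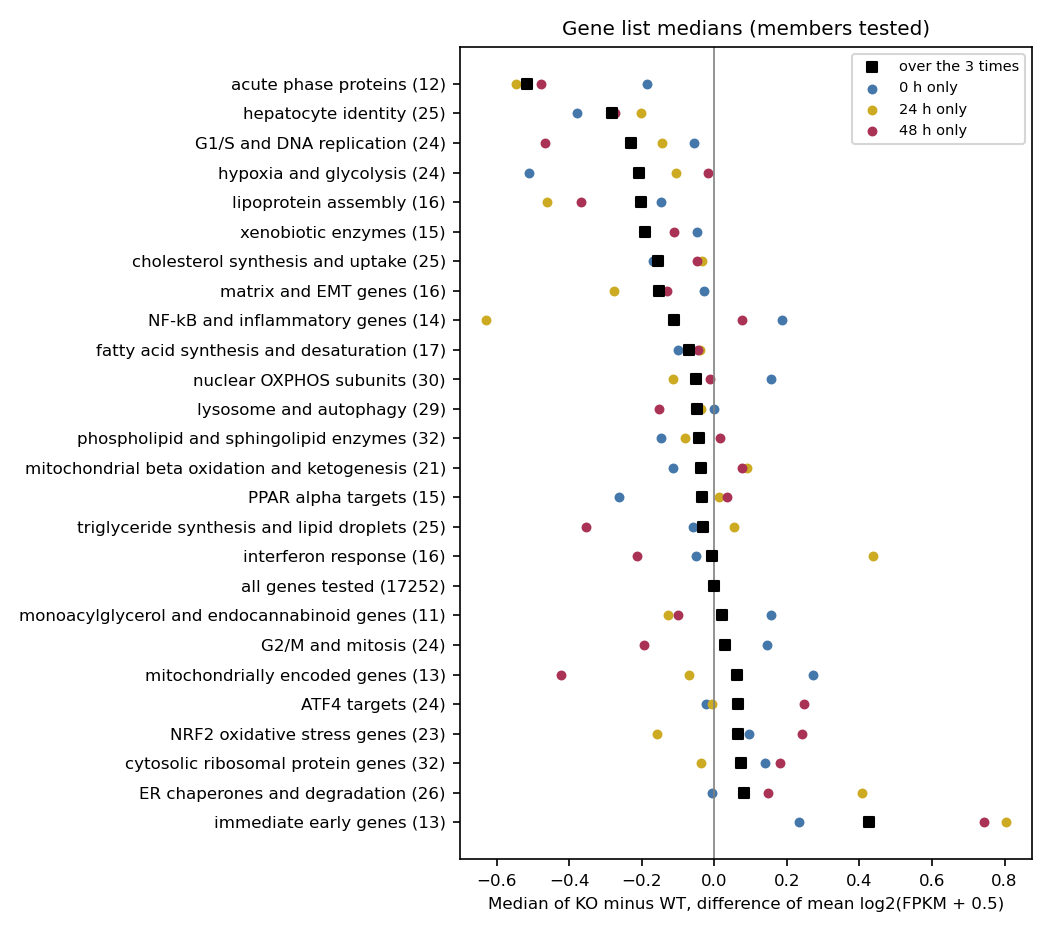
Median differences of the gene lists with at least 10 tested members (number in brackets), ordered by the value over the 3 times. The x axis is the median of KO minus WT in mean log2(FPKM + 0.5); black squares are over the 3 times and coloured points are single times. Acute phase and hepatocyte identity genes lie lowest (-0.52 and -0.28), immediate early genes highest (0.43), and all genes tested lie at 0.

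Whether a difference found in 2 times was also seen in the third was read directly. Fitted on 24 h and 48 h, 9 genes were called, and 8 had the same sign at 0 h. Fitted on 0 h and 48 h, 2 were called and 2 had the same sign at 24 h. Fitted on 0 h and 24 h, 6 were called and 6 had the same sign at 48 h. These add to 16 of 17, with some genes counted more than once, against 47.7%, 49.7% and 48.8% of all genes tested. The genes lower in KO had a median difference of -0.63 in the fit and -0.37 in the time held out for 0 h, -1.19 and -0.91 for 24 h, and -1.39 and -0.59 for 48 h.

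A change of the genotype difference with time was called for 6 genes (0.0348% of those tested), none of them among the 21, and 1019 genes had an unadjusted p under 0.05. They were *MT-ND5*, *MT-ND3*, *MT-CO3*, *MT-ATP6* and *MT-ATP8*, all encoded in mitochondria, and *AC009630.2*, an antisense gene. *MT-ND5*, a subunit of respiratory complex I, was 4526 to 8389.5 FPKM in KO and 3158 to 3683 in WT at 0 h, and 13291 to 16922 in WT and 8883 to 11344 in KO at 48 h, so its difference turned from 0.88 to -0.62. *MT-CO3*, *MT-ATP6* and *MT-ATP8* had no WT library above 0 at 48 h (4 of 4 at 0) while other mitochondrial genes were not. Among the 21 called genes the lowest adjusted p of this test was 0.593, for *AC005726.4*, which does not show that their differences were equal at the 3 times.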

How the data were processed

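RNA of 24 libraries of Huh7 cells was sequenced from an Illumina directional mRNA kit. The authors deposited 1 table of FPKM values per gene and library. Per the submitters' processing notes, the build was GRCh38 and the tools included Cuffdiff, Cufflinks and STAR; neither versions nor a strand setting are given, and fragment counts were not used here. Symbols, positions and exon overlaps came from GENCODE release 29, matched on Ensembl IDs without versions (57420 of 58024, 99.0%). The 45 copies on chromosome Y of genes shared with X, all at 0, were left out.

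Values were taken as log2(FPKM + 0.5) with no scaling between libraries, for genes averaging 0.5 FPKM or more. limma 3.58.1 (R 4.3.3) was fitted with genotype and time as terms and a variance trend, giving 20 residual and 4.64 prior degrees of freedom. A second limma fit tested genotype by time. Calls used a Benjamini-Hochberg adjusted p under 0.05 over all genes tested. A gene held at every time if it was called, had 1 sign at the 3 times and no genotype by time call. Library measures were compared by exact permutation within times (343000 arrangements). Python 3.11.15 with pandas 2.3.3, numpy 2.4.6, scipy 1.17.1 and matplotlib 3.10.9 made the tables and plots. Fragments per library were estimated from the lowest steps of the values on genes with 1 transcript of at least 1500 bp.

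The comparison, the 30 gene lists and the naming rule were chosen with earlier results of these data known. The rule named *ABHD6*, called genes of at least 5 FPKM with the largest differences, the 4 highest and 4 lowest antisense or clone-named genes with the gene each overlaps, genes with no overlap of libraries at any time, called list members, and up to 4 genes with a genotype by time call. Other genes are named as chosen later, and a few items are not reported here. Alternatives were a floor of 2 FPKM or none, pseudocounts of 0.1 and 1, 2 scalings, other variance settings, a fit of 6 group means, the replicate number as a block, left-out libraries or times, and genes without opposite-strand overlap. Means over the 3 times per genotype and replicate number were added after seeing the data.

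On simulated data for the comparison of KO with WT over 3 times (17182 genes, with a noise setting chosen after comparison with the real spread), the fit called 24 of 38 genes changed 2-fold at 20 FPKM or more (63.2%), 6 of 62 at 5 to 20 FPKM (9.68%), and 33.3% and 1.72% of those changed 1.5-fold. It called 48 genes in all, 3 of them unchanged, and 0 in a run with no change. Simulated depths were set in proportion to summed FPKM and did not follow the estimated fragments of single libraries. WT 48 h replicate 3, for example, had the lowest summed FPKM (748252) and the most estimated fragments (758874).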

Additional observations from a re-analysis of the deposited data

Results flagged for a closer look

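Within groups of 4 libraries, 18 of the 162 sets of values looked at had 1 library set apart from the other 3. The gap exceeded Dixon's critical value at the 95% level, which chance does for about 1 group in 20. That rate does not hold for *CLRN3* in KO at 0 h and 48 h. There the other 3 libraries were listed at 0, so any value above 0 is set apart. In WT at 0 h the values set apart were *NQO1* in replicate 0 (20.5 FPKM, others 9.85 to 10.6), *CLRN3* in replicate 2 (3.88 FPKM, others 2.12 to 2.39) and the share of ribosomal protein genes in replicate 3 (0.559%). In KO at 0 h they were *NQO1* in replicate 1 (1.59 FPKM, others 2.99 to 3.07), *DNAJC17* in replicate 2 (158 FPKM), *CLRN3* in replicate 3 (2.27 FPKM, others listed at 0) and the estimated fragments of replicate 1 (506146). In KO at 24 h they were *AC005726.4* in replicate 0 (194 FPKM) and *FGB* in replicate 2 (79.6 FPKM).

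In WT at 48 h *FGB* stood high in replicate 0 (176 FPKM), and replicate 3 was low for *AC023024.1* (338 FPKM, others 529.6 to 544) and for summed FPKM (748252). In KO at 48 h replicate 3 was low for *HPS3* (103 FPKM) and *MAP3K4* (0.894 FPKM) and high for *CLRN3* (1.56 FPKM) and the ribosomal protein share (0.701%). *PTPRG-AS1* was high in KO 48 h replicate 1 (29.6 FPKM) and *AC020656.1* low in replicate 0 (34781 FPKM). None of these libraries was left out of the values above.

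The genotype difference changed with time by the limma test of genotype by time for *MT-ND5* (adjusted p = 0.000558), *MT-ND3* (adjusted p = 0.0113), *MT-ATP6* (adjusted p = 3.34e-20), *MT-CO3* (adjusted p = 2.74e-25), *MT-ATP8* (adjusted p = 1.32e-21) and *AC009630.2* (adjusted p = 0.00792). The values of *MT-ATP6*, *MT-CO3* and *MT-ATP8* rest on 4 WT libraries at 48 h in which they are listed at 0. *AC009630.2* was 191 to 262 FPKM in KO and 362 to 440.4 in WT at 48 h, with differences of 0.12, -0.03 and -0.86 at 0 h, 24 h and 48 h.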

How the results depend on the processing

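The number of genes called over the 3 times was 16 to 31 under pseudocounts of 0.1 and 1, no filter, a floor of 2 FPKM, both scalings, a fit of 6 group means, robust variance and array weights, and the same genes then held at every time except that 27 of the 31 of the group-mean fit did. It fell to 7 without the variance trend (6 of them among the 21), and to 5 on genes with no opposite-strand overlap (fewer genes were tested). Without the 0 h, 24 h or 48 h libraries it was 9, 2 and 6 (fewer libraries), of which 5, 2 and 6 were among the 21; these also held at each time kept. With means over the 3 times per genotype and replicate number, 8 were called (3 higher, 5 lower), 4 of them among the 21: *HPS3*, *AC026333.3*, *AC092115.2* and *AC005726.4*. Genes with no overlap at any time numbered 8 after quantile normalization (2 higher, 6 lower), 1 among genes without opposite-strand overlap, and 35, 23 and 26 without the 0 h, 24 h and 48 h libraries (fewer libraries to keep apart). Genotype by time gave 3 genes without the variance trend, where the cause was not tested. Of genes called in 2 times, the held-out time had the same sign for 26 of 30 after median-of-ratios rescaling and 31 of 35 after quantile normalization.

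With 1 library left out the genes called numbered 13 (without WT 24 h replicate 2, and likewise without KO 24 h replicate 3) to 24 (without WT 48 h replicate 3), and those holding at every time 13 to 24. Genes with no overlap numbered 4 to 7, with 7 without WT 24 h replicate 0, WT 24 h replicate 3 or WT 48 h replicate 3, and genotype by time 5 to 10, with 10 without KO 0 h replicate 2. No sign of the 21 genes reversed in 818 alternative values, and the call was kept in 608. The 21 were called on these same libraries with 1 sign at all 3 times, so leaving out a time could not reverse a sign. The lack of reversals is therefore a description. With 1 library left out, *TF*, *FGB*, *FABP1*, *SLC19A1*, *HPS3*, *ADGRG5* and *DNAJC17* kept their calls in all 24 fits, and *HPS3* alone of these 7 kept its call both without the variance trend and on means per replicate number, where *TF*, *FGB*, *FABP1*, *SLC19A1* and *DNAJC17* lost theirs in both and *ADGRG5* in the latter.

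The values do not settle whether the replicate numbers pair the samples. Deviations of KO and WT libraries of the same number and time had correlations between -0.09 and 0.09 (12 pairs). Across all groups they lay between -0.13 and 0.14 for the same number (60 pairs) and -0.16 and 0.17 for different numbers (180 pairs). They were taken across 3341 genes of at least 20 FPKM, which are not independent, and cannot exclude a pairing in single genes. With the replicate block 31 genes were called (5 higher, 26 lower), which included all 21, and genotype by time gave 10.

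On simulated data, whose depths did not follow the estimated fragments of single libraries, 9.68% of genes changed 2-fold at 5 to 20 FPKM were called. A gene without a call is therefore not shown to be equal in the 2 genotypes.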
